A study of Mus musculus with 14 samples.

Results

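The glucocorticoid receptor gene Nr3c1 and 9 of its target genes (Tsc22d3, Klf9, Fkbp5, Per1, Sgk1, Dusp1, Zbtb16, Ddit4 and Cdkn1a) were described in mouse thymus under estradiol and under genistein. The members were all probe sets annotated to one of these 10 genes and to no other, which gave 23 of the 22690 probe sets on the array, and each probe set was kept apart. Of the 23, 15 probe sets of 9 genes lay above a filter that left out the lowest 40% of probe sets by mean signal, and these were tested. The other 8, namely 5 of Klf9, both of Zbtb16 and 1 of Cdkn1a, are given as values only. Averaged over the days, Tsc22d3 rose under both treatments on 1 of its 3 probe sets. Both calls were lost without control replicate 2, and the genistein call was lost in 17 of 27 other settings of the processing. Klf9 also passed under both treatments on the dimmer of its 2 tested probe sets. That probe set lay above the filter only through its treated arrays, and the brighter passed under neither. No probe set of the receptor or of the other targets passed.

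The mice were female C57BL/6, ovariectomised at 26 days and moved 2 days later to a purified diet free of phytoestrogens (AIN-93G), and treatment started at 30 days. Ovariectomy removes the main source of endogenous estrogen, and all groups share it. The estradiol groups received 125 ng of estradiol (E2) under the skin each day in 0.02 ml of corn oil, and thymus RNA was taken at day 2, day 3 or day 6. The genistein groups ate the same diet with 1500 ppm of genistein, an isoflavone of soy that binds estrogen receptors, and were sampled at the same days. The control group was sampled untreated at day 0. Each of these 7 groups has 2 arrays, and each array holds RNA pooled from 3 mice. No untreated arrays of later days were analysed here, so treatment and elapsed time cannot be told apart in any comparison with control. Injection and oil were given to the estradiol groups alone and cannot be told apart from estradiol, and dose and route differ between the treatments.

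Values are signals of the array on a linear scale, after every array was multiplied to one 2%-trimmed mean. As deposited, 11 of the 14 arrays shared a trimmed mean of 149.99, while estradiol day 2 replicate 2 and both estradiol day 3 arrays had 223.3, 300.2 and 334.5. The signal ratio of 3' to 5' Gapdh probe sets, a sign of RNA integrity, was 1.266 on estradiol day 2 replicate 1, 1.503 on genistein day 6 replicate 1 and 0.867 to 1.10 on the others. The tissue label was checked with markers of double-positive thymocytes, the main cell of the thymus: 8 of 10 listed genes were on the array and all 8 were tested, among them Rag1 at signals of 1917 to 2962 and Cd8a at 1583 to 2128. None of the 8 passed limma's test against control, while 2 under estradiol and 1 under genistein had an unadjusted p under 0.05. Control replicate 2 had the lowest mean correlation with the other arrays (Pearson r = 0.959, with 0.966 to 0.977 on the rest), and calls that rest on it are given beside the results.

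Glucocorticoids enter the cell and bind a receptor that is held in the cytoplasm by chaperones. The bound receptor moves to the nucleus, where it binds DNA as a dimer at a palindromic element or acts through other factors, and it raises or lowers the transcription of its targets. The thymus is known for its sensitivity to these hormones, which kill immature thymocytes at high doses.

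RefSeq start-site windows (mouse assembly GRCm38.p6), each running from 250 bases before to 50 bases after an annotated start, were searched for 17 starts of 8 member genes. Starts of Nr3c1 and Zbtb16 were not among them. On both strands, 4 patterns were sought: the palindromic glucocorticoid response element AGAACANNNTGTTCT, one arm of it, AGAACA, the cAMP response element TGACGTCA and the E-box CACGTG. Windows of the 2 genes with called probe sets are shown with that of Sgk1, the only searched member window with the whole element. Capitals mark every match to a pattern. Of the 3 windows of Tsc22d3 the one with a match is shown, and the 2 others held none of the 4 patterns. The windows lie at chrX:140600473-140600772 on the minus strand for Tsc22d3, at chr19:23140976-23141275 on the plus strand for Klf9 and at chr10:21993640-21993939 on the plus strand for Sgk1, and all are printed 5' to 3' along the gene.
Tsc22d3: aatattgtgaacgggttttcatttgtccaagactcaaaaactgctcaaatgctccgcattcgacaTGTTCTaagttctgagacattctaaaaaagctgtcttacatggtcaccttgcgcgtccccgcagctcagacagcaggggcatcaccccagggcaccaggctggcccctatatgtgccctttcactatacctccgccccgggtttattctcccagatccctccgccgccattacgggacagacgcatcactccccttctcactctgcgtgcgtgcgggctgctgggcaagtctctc
Klf9: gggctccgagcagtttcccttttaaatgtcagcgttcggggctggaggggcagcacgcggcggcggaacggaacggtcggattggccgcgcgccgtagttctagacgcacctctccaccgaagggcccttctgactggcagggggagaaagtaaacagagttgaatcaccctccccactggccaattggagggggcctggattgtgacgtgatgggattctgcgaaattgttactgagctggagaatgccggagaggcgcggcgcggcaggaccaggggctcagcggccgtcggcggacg
Sgk1: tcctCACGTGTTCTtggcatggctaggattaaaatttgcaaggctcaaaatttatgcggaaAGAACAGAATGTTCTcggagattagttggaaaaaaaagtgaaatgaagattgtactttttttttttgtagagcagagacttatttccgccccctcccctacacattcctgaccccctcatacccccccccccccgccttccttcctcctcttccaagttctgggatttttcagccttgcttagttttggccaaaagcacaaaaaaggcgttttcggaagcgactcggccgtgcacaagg
The whole element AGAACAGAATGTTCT stands 189 to 175 bases before this Sgk1 start, and it holds the arm AGAACA on each strand. The pattern was held by 3 of 32851 windows of all genes, which is 0.00913%. The arm was found in 4 member windows, 1 of Tsc22d3 (read as TGTTCT, 185 to 180 bases before the start) and 3 of Sgk1, and in 19% of all windows. In the Sgk1 window shown, an E-box at 246 to 241 bases before the start overlaps a further copy of the arm. E-boxes were also in a window each of Fkbp5, Per1 and Dusp1, and in 7.15% of all windows. The cAMP response element was in 1 member window, that of Dusp1 at chr17:26508423-26508722, and in 1.79% of all windows. The Klf9 window held none of the 4 patterns, which says only that these letters are not in this stretch.

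The receptor came first. Nr3c1 had 3 tested probe sets. On 1421867_at the lowest, median and highest signals were 699.8, 828.2 and 1077 on the 6 estradiol arrays, 767.4, 846.6 and 989.6 on the 6 genistein arrays, and 797.9 and 880.6 on the control arrays. The control pair lay inside both treated ranges. The log2 change, which is taken on log2(signal + 16) with the 3 days given equal weight, was 0.04 ± 0.143 for estradiol against control (SE, limma, adjusted p = 0.932) and 0.04 ± 0.143 for genistein against control (limma, adjusted p = 0.947). Sorting the 7 groups of this probe set by level put estradiol day 6 highest and estradiol day 3 lowest, and none of the 6 neighbouring pairs was separated by its arrays.

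The 2 other Nr3c1 probe sets also overlapped control under both treatments. On 1460303_at the signals were 389.5 to 764.9 under estradiol, 436.9 to 624.3 under genistein, and 522.8 and 514.5 in control, with changes of 0.14 ± 0.186 and -0.03 ± 0.186 against control. On 1421866_at they were 79.0 to 259.6 under estradiol, 92.0 to 174.2 under genistein, and 155.2 and 187.0 in control. Estradiol day 2 replicate 1 gave the lowest value of both probe sets and estradiol day 2 replicate 2 the highest of 1421866_at, and on 1421866_at this pair spanned a wider range than the other 12 arrays. Estradiol day 2 replicate 1 has the raised Gapdh ratio given above and replicate 2 was deposited on another scale, and their part in the spread was not tested. Over the 14 arrays the 3 probe sets correlated with each other at Pearson r = 0.41 to 0.78.

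**Figure D1:**
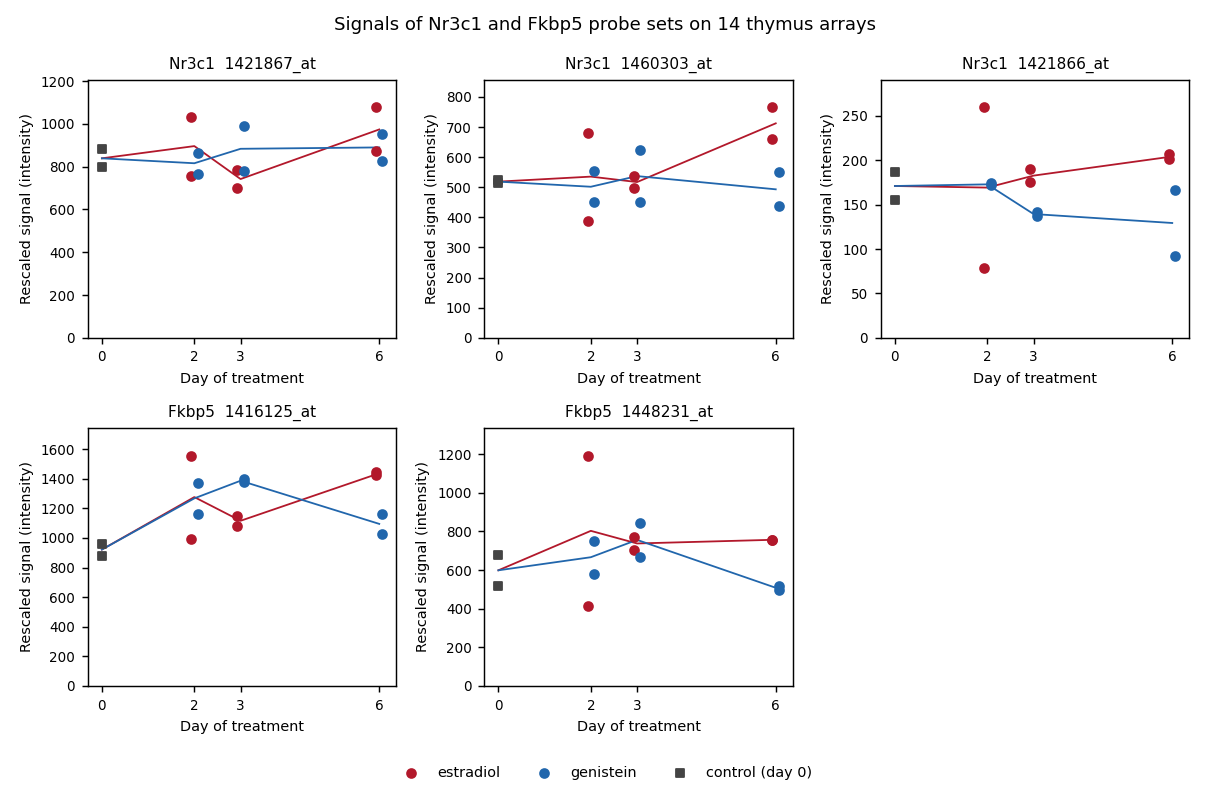
Rescaled signal (linear scale from 0) of the 3 Nr3c1 and 2 Fkbp5 probe sets against day of treatment. Points are single arrays, lines join the means of the 2 arrays of a group, and both lines start at the day 0 control. The control signals of Nr3c1 (797.9 and 880.6 on 1421867_at) lie among the treated ones, and those of Fkbp5 1416125_at (962.3 and 880.9) lie below all 12 treated arrays.

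Tsc22d3 encodes the glucocorticoid-induced leucine zipper, a protein that restrains inflammatory transcription factors and is induced in thymocytes by glucocorticoids. On 1420772_a_at, estradiol arrays had signals of 377.0 and 510.3 (day 2), 612.0 and 561.0 (day 3) and 682.1 and 722.4 (day 6). Genistein arrays had 609.1 and 533.2 (day 2), 490.5 and 779.1 (day 3) and 544.0 and 580.8 (day 6), while control had 252.9 and 286.8. All 12 treated arrays lay above both control arrays. Averaged over the days, Tsc22d3 on 1420772_a_at rose under estradiol by 1.03 ± 0.161 on the log2 scale, a fold of 2.04 (limma, adjusted p = 0.0127). Under genistein it rose by 1.07 ± 0.161, a fold of 2.10 (limma, adjusted p = 0.0412). The estradiol change stood at 0.67 ± 0.197 at day 2, 1.08 ± 0.197 at day 3 and 1.33 ± 0.197 at day 6, of which day 6 passed (limma, adjusted p = 0.25, 0.081 and 0.00818). The day 6 call was lost without control replicate 2 (limma, adjusted p = 0.053) and without either estradiol day 6 array (0.0743 and 0.12). The genistein change was 1.04, 1.15 and 1.02 at these days and passed at none of them when taken alone (limma, adjusted p = 0.123, 0.155 and 0.188). The estradiol call on the mean of the days was lost without control replicate 2 (change 1.11). It was also lost without the 3 arrays of another deposited scale (change 0.90, over days 2 and 6). With the deposited scale as a term the change was 0.82 and did not pass (limma, adjusted p = 0.152). The genistein call was lost in 17 of 27 other settings, among them without control replicate 2 (limma, adjusted p = 0.391) and with no filter on dim probe sets (adjusted p = 0.104), and its change stayed between 0.96 and 1.21.

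The second Tsc22d3 probe set, 1425281_a_at, followed the first over the arrays (Pearson r = 0.94 over 14 arrays). Under estradiol its day 2 arrays gave signals of 309.5 and 389.7, its day 3 arrays 492.0 and 450.1, and its day 6 arrays 523.6 and 549.2, with 379.2 to 543.8 under genistein, and 291.8 and 271.5 in control. Again all 12 treated arrays lay above control. It rose under estradiol at day 6 by 0.89 ± 0.178 (limma, adjusted p = 0.0391), a call lost in 10 of 27 other settings, among them without control replicate 2 (limma, adjusted p = 0.247) and without either estradiol day 6 array (limma, adjusted p = 0.241 and 0.354). Its mean change over the days was 0.63 ± 0.145 for estradiol (limma, adjusted p = 0.0676) and 0.60 ± 0.145 for genistein (limma, adjusted p = 0.256), and neither passed. The third probe set, 1425557_x_at, whose suffix marks probes shared with other sequences, ran apart from both (Pearson r = -0.12 and -0.22). It had 97.11 to 121.0 under estradiol, 100.8 to 139.4 under genistein, and 90.3 and 163.7 in control, so that the control pair enclosed every treated array.

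**Figure D2:**
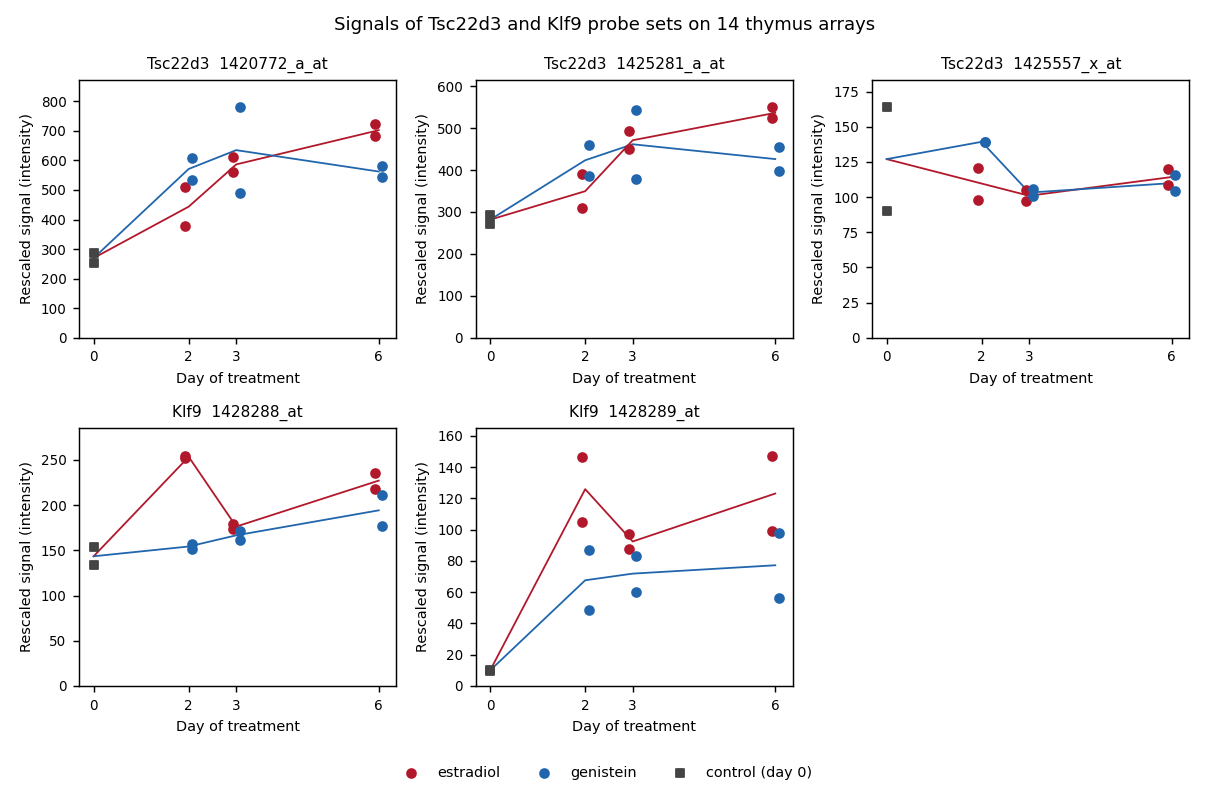
Rescaled signal (linear scale from 0) of the 5 tested Tsc22d3 and Klf9 probe sets against day of treatment, drawn as single arrays with lines through group means from the day 0 control. On Tsc22d3 1420772_a_at and 1425281_a_at and on Klf9 1428289_at every treated array lies above both controls, while the 2 controls of Tsc22d3 1425557_x_at (90.3 and 163.7) enclose all treated arrays.

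Klf9 encodes a Krüppel-like zinc-finger transcription factor that the receptor induces directly in many tissues. On 1428289_at, estradiol arrays had signals of 105.1 and 146.8 (day 2), 97.07 and 87.88 (day 3) and 98.9 and 147.4 (day 6). Genistein arrays had 48.5 and 86.8 (day 2), 60.4 and 83.4 (day 3) and 56.3 and 98.2 (day 6), while control had 9.8 and 10.2. The 12 treated arrays all lay above control, but the control signals were below the lowest mean signal tested (44.5) and below the added 16. The probe set thus entered the test only through its treated arrays, and the size of its change depends on how dim signals are treated, so no fold is given. On log2(signal + 16) Klf9 on 1428289_at was higher by 2.30 ± 0.228 under estradiol (limma, adjusted p = 0.00046) and by 1.73 ± 0.228 under genistein (limma, adjusted p = 0.019). With no filter on dim probe sets, the estradiol change passed (limma, adjusted p = 0.00358) and the genistein change did not (adjusted p = 0.0703). The estradiol change passed at day 2 (2.43), day 3 (2.06) and day 6 (2.40) taken alone (limma, adjusted p = 0.00393, 0.0177 and 0.00211), and the genistein changes of 1.65, 1.74 and 1.81 passed at none (limma, adjusted p = 0.0953, 0.155 and 0.111). The mean estradiol change was called in all 26 other settings that tested it, with sizes of 1.25 (64 added in place of 16) to 3.35 (1 added), and it was not tested with the lowest 60% left out. The genistein change ran from 0.87 to 2.69 between the same settings, and its call was lost in 6 of 26. Among these were 64 added (limma, adjusted p = 0.0933), control replicate 2 left out (change 1.74) and genistein day 3 replicate 2 left out (change 1.67). Apart from the setting with no filter, all settings kept a filter that the probe set passed only through its treated arrays. The counts of settings are therefore no separate support. Single-day estradiol calls were lost at day 2 without control replicate 2 (change 2.44) and at day 6 without estradiol day 6 replicate 2 (2.14). At day 3 the call was lost without control replicate 2 (change 2.07) or either estradiol day 3 array (2.00 and 2.12). The day 2 call was also lost without the arrays of another deposited scale (change 2.22) and with only the groups compared (limma, adjusted p = 0.121). The day 3 call was also lost with the deposited scale as a term (limma, change 1.63, adjusted p = 0.443) and with only the groups compared (adjusted p = 0.101).

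The second tested Klf9 probe set, 1428288_at, did not pass. Under estradiol its day 2 arrays gave signals of 252.2 and 254.8, its day 3 arrays 178.7 and 174.0, and its day 6 arrays 218.4 and 236.0. They were 157.5 and 151.1, 161.3 and 172.0, and 177.2 and 211.4 at these days under genistein, and 133.7 and 153.3 in control. All 6 estradiol arrays lay above control, and 1 genistein array of day 2 fell between the controls. The change was 0.55 ± 0.118 under estradiol (limma, adjusted p = 0.0596) and 0.23 ± 0.118 under genistein (limma, adjusted p = 0.49). The estradiol value crossed the threshold without either genistein day 6 array (limma, adjusted p = 0.0483 and 0.0493), which changes no value of this contrast but the shared estimate of spread. The 2 tested Klf9 probe sets correlated at Pearson r = 0.77 over 14 arrays. The 5 untested ones had mean signals of 5.831 to 31.32, and on 1452723_at, 1456341_a_at and 1436763_a_at no neighbours in the order of the group levels were separated by their arrays.

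Fkbp5 encodes a co-chaperone that lowers the receptor's affinity for hormone and closes a feedback loop. On 1416125_at the lowest, median and highest signals were 996.2, 1288 and 1556 under estradiol, 1028, 1268 and 1398 under genistein, and control had 962.3 and 880.9. Each treated array lay above both controls, by little on estradiol day 2 replicate 1 and genistein day 6 replicate 1. The change was 0.45 ± 0.141 under estradiol (limma, adjusted p = 0.163) and 0.43 ± 0.141 under genistein (limma, adjusted p = 0.346), and neither passed. Without estradiol day 2 replicate 1, the estradiol change was 0.55 and passed (limma, adjusted p = 0.0339). The other probe set, 1448231_at, had 413.8 and 1192 on the 2 estradiol day 2 arrays, 704.2 to 770.9 on the later estradiol arrays, 498.9 to 845.3 under genistein, and 677.3 and 520.0 in control. It overlapped control under both treatments, with changes of 0.30 ± 0.269 and 0.09 ± 0.269.

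Among the remaining transcription regulators, Per1 encodes a repressor of the circadian clock that glucocorticoids induce. Per1 on 1449851_at had lowest, median and highest signals of 128.6, 176.2 and 268.2 under estradiol, 100.3, 135.8 and 215.6 under genistein, and 114.6 and 93.3 in control. All estradiol arrays lay above control, and 1 genistein array of day 3 lay between the controls. The change was 0.76 ± 0.271 under estradiol (limma, adjusted p = 0.211) and 0.42 ± 0.271 under genistein (limma, adjusted p = 0.571). Zbtb16 encodes PLZF, a factor that directs innate-like T cells. It was dim, with signals of 11 to 75.6 under estradiol, 14.6 to 72.8 under genistein, and 52.1 and 35.3 in control on 1427638_at, so that both treated ranges enclosed the controls. Of the 6 neighbouring pairs in the order of its 7 groups 2 were apart, genistein day 6 above control and estradiol day 3 above genistein day 3. Its second probe set, 1419874_x_at, had a mean signal of 11.89.

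Sgk1, a kinase that controls ion transport and cell survival, had signals of 132.9 to 201.1 under estradiol, 79.0 to 160.6 under genistein, and 124.8 and 121.5 in control on 1416041_at. All 6 estradiol arrays lay above control, and the change of 0.35 ± 0.185 did not pass (limma, adjusted p = 0.406). Of the members searched, Sgk1 is that with the whole response element shown above in a start-site window. Dusp1, a phosphatase that switches off MAP kinases, had 119.9 to 159.9 under estradiol, 103.0 to 161.6 under genistein, and 129.5 and 123.2 in control on 1448830_at. Its changes of 0.15 ± 0.146 and 0.09 ± 0.146 were within the spread of the arrays.

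Ddit4, also called REDD1, restrains growth signalling through mTORC1. On 1428306_at it had 509.8 and 977.3 on the 2 estradiol day 2 arrays, 919.7 to 994.8 on the later estradiol arrays, 878.1 to 1123 under genistein, and 608.7 and 787.8 in control. The 6 genistein arrays and 5 of 6 estradiol arrays lay above control, and the changes of 0.32 ± 0.185 for estradiol (limma, adjusted p = 0.454) and 0.48 ± 0.185 for genistein (limma, adjusted p = 0.384) did not pass. Cdkn1a encodes p21, an inhibitor of the cell cycle. On 1424638_at it had 116.5 to 142.2 under estradiol, 85.2 to 118.9 under genistein, and 96.4 and 105.0 in control. All 6 estradiol arrays stood above control, with a change of 0.32 ± 0.137 that did not pass (limma, adjusted p = 0.288). Its second probe set, 1421679_a_at, had a mean signal of 15.79 and was not tested.

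**Figure D3:**
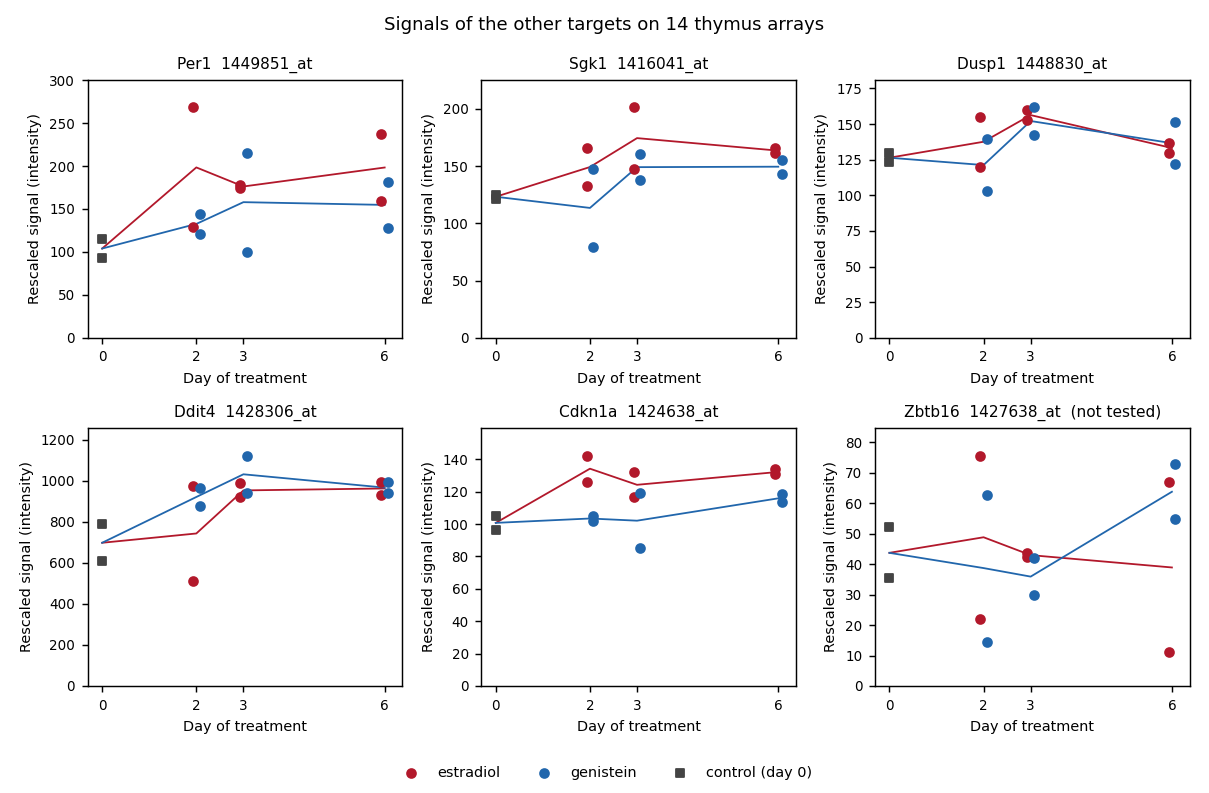
Rescaled signal (linear scale from 0) of Per1, Sgk1, Dusp1, Ddit4, Cdkn1a and the brighter Zbtb16 probe set against day of treatment, drawn as single arrays with lines through group means from the day 0 control. Cdkn1a shows all 6 estradiol arrays (116.5 to 142.2) above both controls (96.4 and 105.0), and the Zbtb16 signals of both treatments range below and above the controls (52.1 and 35.3).

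Counted over the 15 tested probe sets, 2 were higher under estradiol than in control on the mean of the days and none was lower, where 0.604% of all 13576 tested probe sets were called (limma, adjusted p under 0.05). At an unadjusted p under 0.05 stood 7 members, beside 14.8% of all. At single days the members called under estradiol were 1 at day 2 (0.0884% of all tested), 1 at day 3 (0.0663%) and 3 at day 6 (0.656%). Klf9 1428289_at was the only member called at day 2 and at day 3, and it was 1 of the 3 at day 6. It entered the test only through its treated arrays, so these calls of it are no separate support. Under genistein, 2 members were called on the mean of the days, where 0.0368% of all were, that is 5 probe sets, and 5 members had an unadjusted p under 0.05, beside 11.1% of all. In both comparisons 1 of the 2 called was Klf9 1428289_at, and of the other 14 members 1 was called in each. At single days of genistein limma called 0 members at day 2 (0.0147% of all), 0 at day 3 (0.00737%) and 0 at day 6 (0.00737%), while 4, 5 and 4 members had an unadjusted p under 0.05, beside 11.8%, 5.73% and 10.4% of all. Without control replicate 1, probe sets called at these days numbered 292, 101 and 154 in place of 2, 1 and 1, with 1 member at each. The estradiol changes of the members were positive for 14 of 15 with a median of 0.32, beside a median of 0.00 over all tested probe sets. The genistein changes were positive for 12 of 15 with a median of 0.11, beside 0.01 over all. Without Klf9 1428289_at the medians were 0.32 and 0.10. The members at an unadjusted p under 0.05 were then 6 of 14 under estradiol and 4 of 14 under genistein. Both comparisons share the 2 control arrays.

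Members with all 6 treated arrays above both controls numbered 8 of 15 under estradiol, where 7.99% of all tested probe sets were so placed, and 5 of 15 under genistein, where 4.54% were. The 8 under estradiol were 2 probe sets of Tsc22d3, 2 of Klf9 and 1 each of Fkbp5, Per1, Sgk1 and Cdkn1a. The 5 under genistein were the same probe sets of Tsc22d3, 1428289_at of Klf9, 1416125_at of Fkbp5 and Ddit4. Without Klf9 1428289_at the numbers were 7 of 14 under estradiol and 4 of 14 under genistein. The members were chosen with earlier results of these data known, so these shares are a description.

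**Figure D4:**
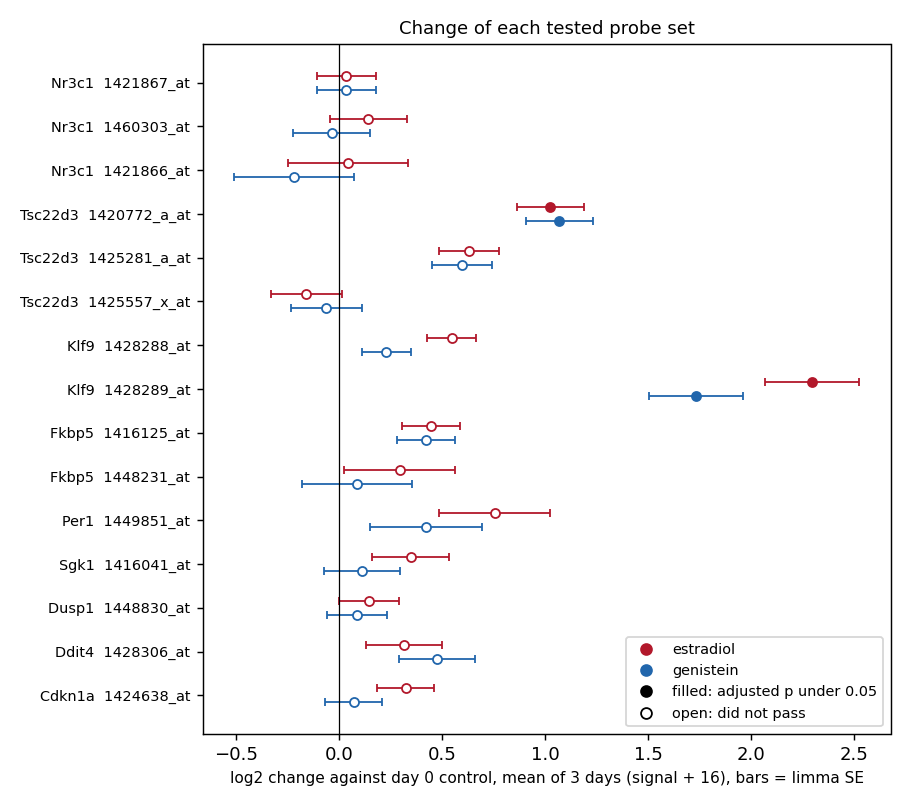
Log2 change against the day 0 control (mean of the 3 days, on signal + 16) of each tested probe set, with limma standard errors as bars, estradiol above genistein in each row. Filled points, those with an adjusted p under 0.05, are found on Tsc22d3 1420772_a_at (1.03 and 1.07) and Klf9 1428289_at (2.30 and 1.73), and the 3 Nr3c1 probe sets lie around 0. Klf9 1428289_at lay above the filter only through its treated arrays. Both genistein calls were lost with no filter on dim probe sets (limma, adjusted p = 0.104 for Tsc22d3 and 0.0703 for Klf9).

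Estradiol was then set against genistein at the same days. No member passed on the mean of the days, where 1.41% of all tested probe sets were called by limma, and 3 of 15 members had an unadjusted p under 0.05, both Klf9 probe sets and Cdkn1a, a share near the 17.1% of all tested probe sets. The estradiol minus genistein value of Klf9 was 0.56 on 1428289_at (95% interval 0.22 to 0.91, limma, adjusted p = 0.0976) and 0.32 on 1428288_at (0.14 to 0.50, adjusted p = 0.0785), where intervals are not adjusted for the number of probe sets. Without genistein day 6 replicate 2, the difference of Klf9 1428289_at was 0.67 and passed (limma, adjusted p = 0.0492). That of Cdkn1a was 0.25 (0.05 to 0.46, limma, adjusted p = 0.199). Tsc22d3 stood at -0.04 on 1420772_a_at (-0.29 to 0.20) and at 0.03 on 1425281_a_at (-0.19 to 0.26), and Nr3c1 at 0.00 on 1421867_at (-0.22 to 0.22). No member had all estradiol arrays above all genistein arrays, as 0.98% of all tested probe sets did. Single days gave 0 called members by limma at day 2 (0.081% of all), day 3 (0.0147%) and day 6 (0.265%), with 2, 0 and 2 members at an unadjusted p under 0.05, beside 6.71%, 6.70% and 13.4% of all. The differences were positive for 9, 8 and 13 of 15 members at these days, beside 48.2%, 51.9% and 49.7% of all. The member medians were 0.09, 0.04 and 0.31.

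Changes over days 2, 3 and 6 were tested within each treatment. No member passed limma's test of change over the days of estradiol, where 0.0221% of all were called, and 3 had an unadjusted p under 0.05, beside 6.92% of all: Tsc22d3 on 1420772_a_at (adjusted p = 0.631) and 1425281_a_at (0.625), and Klf9 on 1428288_at (0.625). Over the days of genistein limma called 0% of all probe sets, and 0 members had an unadjusted p under 0.05, beside 5.79% of all. The interaction of treatment and day was called for 0% of all by limma, and 2 members, Klf9 1428288_at and Fkbp5 1416125_at, had an unadjusted p under 0.05, beside 4.23% of all (adjusted p = 1.00 for both).

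The other genes of the pathway were described with 1 probe set a gene, the brightest, and their counts at an unadjusted p under 0.05 stand beside 14.8% of all tested probe sets under estradiol and 11.1% under genistein. Of the receptor's chaperones and the enzymes that make or remove its ligand, 6 were tested and none passed limma's test in either comparison with control (2 at an unadjusted p under 0.05 in each), with medians of -0.17 under estradiol and -0.08 under genistein. The smallest p values under estradiol were those of the co-chaperone Stip1 (-0.31) and the chaperone Hsp90aa1 (-0.22). Hsd11b1, which regenerates active corticosterone within cells, stood at -0.12 ± 0.152 under estradiol and 0.04 ± 0.152 under genistein. Hsd11b2, which inactivates it, was not tested at a mean signal of 31.42. Of the receptor coregulators 7 were tested and 0 passed (limma, 1 under estradiol and 0 under genistein at an unadjusted p under 0.05), with medians of 0.23 under estradiol and 0.09 under genistein and the smallest p values for the chromatin remodeller Smarca4 (0.26) and the arginine methyltransferase Carm1 (0.27) under estradiol.

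Among 29 further genes known to be induced by glucocorticoids, 24 were tested. Of all tested probe sets, 0.604% were called for estradiol against control, 0.0368% for genistein against control and 1.41% between the treatments. Against control 3 rose under estradiol and none fell: the phagocytic receptor Mertk by 0.83 ± 0.17, the metallothionein Mt2 by 0.78 ± 0.163 and the peroxidase Gpx3 by 0.70 ± 0.142 (limma, adjusted p = 0.0439, 0.0489 and 0.0435). None passed under genistein, where Gpx3 stood at 0.58 and the cytokine receptor Il7r at 0.52 (limma, adjusted p = 0.256 for both). All 3 estradiol calls were lost without control replicate 2 (limma, adjusted p = 0.156, 0.193 and 0.43), and 8 of 27 other settings kept Mt2. At an unadjusted p under 0.05 were 12 of the 24 under estradiol, beside 14.8% of all, and 4 under genistein, near the 11.1% of all. The medians of the list were 0.26 under estradiol and 0.12 under genistein. Between the treatments 4 were higher under estradiol: Lcn2 (0.63), Mt2 (0.60), Mertk (0.53) and Cebpb (0.48) (limma, adjusted p = 0.0318, 0.0243, 0.0478 and 0.0427), of which Mt2 alone was kept without the arrays of another deposited scale. Their calls were lost without single arrays in 7 of 14 cases for Mt2 and in 10 or 11 of 14 for the other 3. Of 12 genes known to be repressed by glucocorticoids, 5 were tested and 0 passed in these comparisons (limma, 3 under estradiol and 1 under genistein at an unadjusted p under 0.05). Their median was -0.36 under estradiol and -0.12 under genistein, with the chemokine Cxcl10 at -0.58 ± 0.152 (limma, adjusted p = 0.105) and Ptgs2, the inducible cyclooxygenase, at -0.43 ± 0.177 (limma, adjusted p = 0.277) under estradiol.

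Genes that respond to other signals share some of these targets. None of 7 tested clock genes passed in the comparisons with control (limma, 2 at an unadjusted p under 0.05 under each treatment). Their medians were 0.02 under estradiol and 0.06 under genistein, with 4 of 7 positive under each. Tef and Per3, the 2 of smallest p under estradiol and circadian genes like Per1, stood at 0.42 and 0.48 there. Per2 was not tested at a mean signal of 24.16. None of 10 immediate early genes, a class that holds Dusp1, passed (limma, 2 under estradiol and 1 under genistein at an unadjusted p under 0.05). Medians of this list were 0.04 under estradiol and 0.05 under genistein, and Egr1 stood at -0.30 under estradiol. None of 7 p53 targets, a class that includes Cdkn1a, passed (limma, 1 under each treatment at an unadjusted p under 0.05). The 1 under estradiol was Perp, a desmosomal membrane protein, at 0.67 (adjusted p = 0.0701), and the medians of the p53 targets were 0.20 and 0.07. Of 2 tested genes of steroid synthesis, Star stood at 0.03 under estradiol and 0.57 under genistein, and Cyp21a1 at 0.16 and 0.44.

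Some markers of macrophages, epithelium and adipocytes, and 1 marker of innate-like and gamma-delta T cells, were higher under estradiol than in control. In RNA from whole thymus, more cells of a type and more RNA per cell cannot be told apart. Calls of markers stand beside 0.604% of all tested probe sets for estradiol against control, 0.0368% for genistein against control and 1.41% for estradiol against genistein. Of 9 macrophage markers 4 rose under estradiol against control, namely Hmox1 (1.16), Mertk (0.83), Vcam1 (0.78) and Csf1r (0.55), and the summed signal of the 9 was 2953 to 3464 under estradiol, 2226 to 2973 under genistein, and 1960 to 2001 in control. Mertk is counted here and among the induced genes. Of 8 epithelial markers 4 rose under estradiol, Pax1 (0.87), Trp63 (0.86), Ccl25 (0.50) and Prss16 (0.47), with summed signals of 6609 to 7812 under estradiol, 5780 to 6582 under genistein, and 5042 to 5340 in control. Of 5 tested adipocyte markers 2 rose, Cebpa (1.07) and Lpl (1.03), and the 7 on the array had sums of 1433 to 2337 under estradiol, 911.6 to 1425 under genistein, and 1056 in both controls. Of 5 tested markers of innate-like and gamma-delta T cells Trgv1 alone rose (1.36), and the 6 on the array had sums of 840.8 to 1201 under estradiol, 528.5 to 772.4 under genistein, and 512.7 to 597.3 in control. Trgv1 was the brightest of the 6, with a mean signal of 332.7 beside 18.42 to 175.0 for the others. The sums thus lean on this 1 gene and do not show a rise of the list. All 11 of these calls were lost without control replicate 2 (limma, adjusted p = 0.107 to 0.525), and 2 of them, Lpl and Trgv1, were kept without the arrays of another deposited scale. None of these lists had a gene that passed limma's test under genistein, with 6 macrophage, 3 epithelial, 2 adipocyte and 0 innate-like markers at an unadjusted p under 0.05. None of 5 fibroblast, 5 endothelial and 3 B-cell markers passed against control (limma, 4, 0 and 0 under estradiol and 1, 1 and 0 under genistein at an unadjusted p under 0.05). Set against genistein, the markers higher under estradiol were the epithelial Ly75 (0.82), Pax1 (0.64) and Trp63 (0.62), the macrophage Hmox1 (0.73), Mertk (0.53) and Vcam1 (0.49), the adipocyte Fabp4 (0.83), Lpl (0.70) and Cebpa (0.60), the fibroblast Dcn (0.56) and Trgv1 (1.16) (limma, adjusted p = 0.000846 to 0.0488). The thymocyte marker Cd8b1 was lower (-0.28, limma, adjusted p = 0.0345), a call kept in 11 of 27 other settings. Of these 12 calls only Fabp4, Lpl and Trgv1 were kept without the arrays of another deposited scale. No array listed a marker at 0, and the lowest signal of a tested one was 20.3 for Adipoq. The untested markers on the array were dim, with mean signals of 6.145 (Pparg) to 22.47 (Pdgfra), among them the adipocyte gene Lep at 6.587. The sums of 6 fibroblast markers were 1225 to 1466 under estradiol, 886.2 to 1096 under genistein, and 866.1 to 1040 in control. The part of these cells in the changes of Tsc22d3, Klf9 and the other members was not tested.

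**Figure D5:**
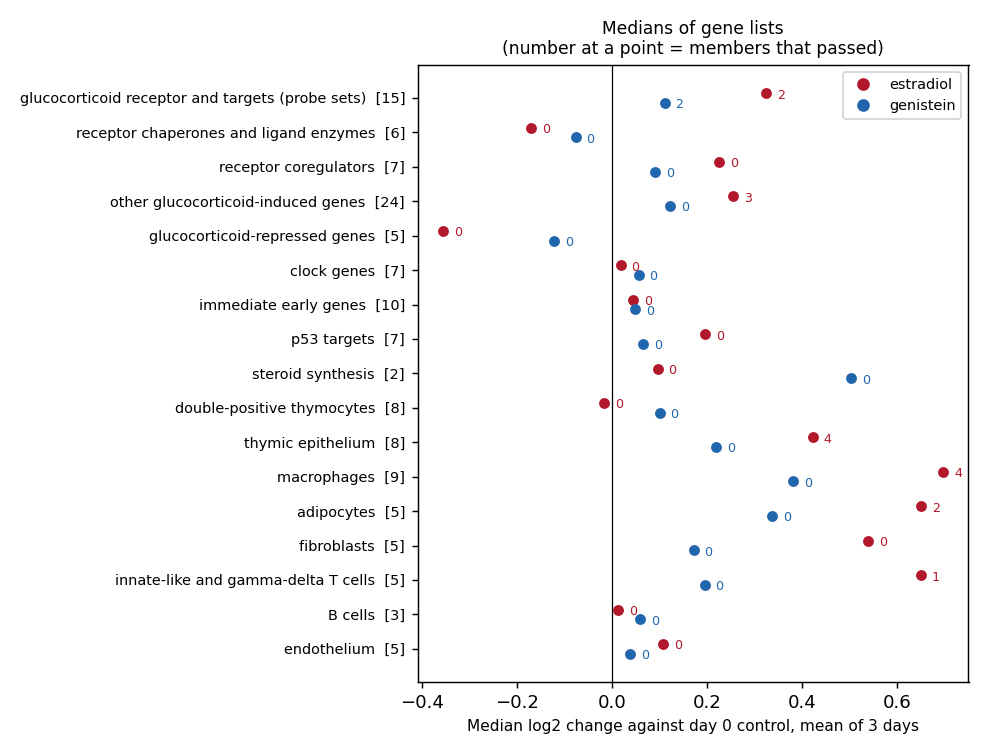
Median log2 change against the day 0 control (mean of the 3 days) of each gene list, estradiol above genistein in each row, with the number of tested members in brackets and the number that passed at each point. The receptor and its targets lie at 0.32 and 0.11, macrophage markers at 0.70 and 0.38, and glucocorticoid-repressed genes at -0.36 and -0.12.

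The genes whose signals ran most alike over the 14 arrays were found for 4 members by Pearson r, as a description over arrays that share their treatments. For Tsc22d3 on 1420772_a_at these were Zfp36l2 (0.90), Urod (0.89) and Abcc3 (0.85). For Klf9 on 1428288_at they were Ly86 (0.92), Plac8 (0.91) and Acaa1b (0.91). For Fkbp5 on 1416125_at they were Btbd2 (0.90), Syk (0.86) and Mlxip (0.84). For Nr3c1 on 1421867_at they were Eif4e3 (0.77), Crbn (0.77) and Ipo8 (0.75), the lowest values of the 4.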

How the data were processed

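Signals of 14 Affymetrix arrays of mouse thymus were used as the authors deposited them, in linear intensity units made with MAS5 5.0 per the submitters' processing notes. No source used here gives detection calls, and precision is limited by there being 2 arrays a group. Groups, days, doses and replicate numbers follow the labels, which call the 2 pools of a group independent biological replicates, and gene names follow the platform annotation, in which 20393 probe sets carry 1 symbol, 691 several and 1606 none. The member genes and all other lists were chosen with earlier results of these data known.

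Each array was multiplied to one 2%-trimmed mean, 64 control probe sets were removed, 16 was added and log2 taken, and the lowest 40% of probe sets by mean were left out, blind to group, which left 13576. limma 3.58.1 in R 4.3.3 fitted the 7 group means with contrasts and an intensity trend (7 residual degrees of freedom, 13.74 after moderation), and p was adjusted by Benjamini-Hochberg over all tested probe sets and called under 0.05. Member probe sets were all named. Of every other list, at most 4 passing genes with the largest change were named, or the 2 of smallest p. Replicate numbers were not used to pair samples in the main fit, and the labels call the pools independent. Same-numbered deviations correlated above 0.1 in 5 of 21 pairs of groups (r from -0.26 to 0.35), which cannot show whether some replicates shared a step. Python 3.11.15 and matplotlib 3.10.9 made the plots. Alternatives changed the pseudocount, filter, scale, normalization, trend, covariates and arrays used.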

Additional observations from a re-analysis of the deposited data

How the results depend on the processing

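Counts of called members moved by over 1.5 times, or to or from 0, in 59 of 403 alternative settings of the 15 comparisons, and 14 more differed by less or just that much. The counts are of 15 tested probe sets, but of 14 with the lowest 60% left out, where Klf9 1428289_at was not tested, and of 23 with no filter, the cause of each move not being tested unless fewer arrays or probe sets show it. For estradiol against control on the mean of the days (2 as reported) the count was 10 with values as deposited, where the median of all probe sets shifted by 0.43 on the log2 scale, 4 with the Gapdh ratio as a covariate, 1 with the lowest 60% left out, 1 with the deposited scale as a term, 1 without the arrays of another deposited scale, and 1 to 3 without single arrays. At day 2 (1) it was 2 as deposited, 0 with the lowest 60% left out, without the arrays of another scale or with only the groups compared, and 0 to 1 without single arrays. At day 3 (1) it was 15 as deposited (median shift 1.01), 2 with the Gapdh ratio, 0 with the lowest 60% left out, the scale as a term or only the groups compared, and 0 to 2 without single arrays, and no value exists without the arrays of another scale. At day 6 (3) it was 2 with no filter, the lowest 60% left out, values as deposited, no intensity trend, only the groups compared or the arrays of another scale left out, 4 with the scale as a term, and 0 to 4 without single arrays. For genistein against control on the mean of the days (2) it was 1 as deposited or with no intensity trend, 0 with pseudocount 64, no filter, the lowest 60% left out, only the groups compared or the arrays of another scale left out, and 0 to 2 without single arrays. At its day 2, day 3 and day 6 (0 each) it was 1 with pseudocount 1 and 1 with the replicate block at each day, 1 and 2 at day 2 and day 3 with the Gapdh ratio, and 0 to 1 without single arrays. The replicate block moved no other count. For estradiol against genistein the count (0) was 13 on the mean of the days and 15 at day 3 as deposited, and 0 to 1 without single arrays on the mean. As deposited, 13 members changed over the days of estradiol and 3 had an interaction. Tsc22d3 1420772_a_at, at -0.04 for estradiol against genistein, was 0.40 as deposited. Without control replicate 2, 4 probe sets in all were called for estradiol against control in place of 82, and 569 without control replicate 1. Under genistein it was 339 without control replicate 1 in place of 5, and without genistein day 3 replicate 2 it was 1. Signals near the added 16, as of Klf9 1428289_at in control, limit the size of its change.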
